A study of Mus musculus with 12 samples.

Results

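The genes described here encode the proteins of the junctions between intestinal epithelial cells: tight junctions, adherens junctions, desmosomes and gap junctions. They were taken by symbol from 18929 genes listed for murine jejunal enteroids: every claudin (Cldn), zonula occludens (Tjp), desmoglein (Dsg), desmocollin (Dsc), plakophilin (Pkp), Marveld and connexin (Gja, Gjb, Gjc) symbol that carried a number, together with Ocln, Cgn, F11r, Cdh1, Cdh17, Ctnna1, Jup, Dsp, Epcam and Pard3. This gave 47 genes, whose types were assigned from the symbol, not from where the protein lies. By type they were 12 claudins, 6 other membrane proteins of tight junctions, 5 tight junction plaque proteins, 3 adherens junction proteins, 6 desmosomal cadherins, 6 desmosomal plaque proteins and 9 connexins. Enteroids are cultures of crypts that grow in Matrigel as closed epithelial structures holding stem, absorptive and secretory cells. RNA-Seq was performed on 12 libraries, 4 for each of 3 genotypes: control enteroids that carry villin-Cre, enteroids without Hdac1 and enteroids without Hdac2. All were cultured for 5 days in ENR medium, which supplies EGF, Noggin and R-Spondin 1. Hdac1 and Hdac2 encode class I histone deacetylases.

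The mutant enteroids came from mice with floxed Hdac1 or Hdac2 alleles and the villin-Cre transgene, which drives recombination in intestinal epithelial cells, in a mixed background of C57BL/6J, 129SV and CD1. The methods name 1 mouse per genotype as the source of crypts. Effects of the genotype and of the single mouse behind each line therefore cannot be told apart, and the p-values measure the spread between libraries, which may be technical. The level of Xist, given with the connexins below, also separated the control line from both mutant lines. Library depth ran from 20693200 to 30658628 gene-assigned reads. Hdac1 stood at 90.6 ± 2.76 CPM (counts scaled to library size; mean ± SD, n = 4) in control and at 4.23 ± 0.834 CPM in Hdac1-deficient libraries. Hdac2 stood at 137.0 ± 3.85 CPM in control and at 75.9 ± 2.89 CPM in Hdac2-deficient libraries. The counts are per gene, so reads from the floxed part could not be counted apart. In the other mutant, Hdac1 stood at 75.3 ± 4.39 CPM (Hdac2-deficient) and Hdac2 at 111.7 ± 3.83 CPM (Hdac1-deficient). The epithelial identity of the cultures was checked with Epcam, Cdh1, Krt8, Krt18 and Krt19, whose summed level was 5122 to 5377 CPM in control cultures, 5418 to 5562 CPM in Hdac1-deficient libraries and 6674 to 6999 CPM in Hdac2-deficient libraries. Markers of mesenchyme, endothelium and immune cells summed to at most 0.356, 0.938 and 0.361 CPM in any library. Col1a2, Col3a1 and Dcn of the mesenchyme list, Cdh5 and Kdr of the endothelium list, and Cd3e and Adgre1 of the immune list were in neither table.

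Tight junctions seal the space between epithelial cells near the lumen. Claudins set which ions and small molecules cross that seal: Cldn2 and Cldn15 form cation pores, while Cldn3, Cldn4, Cldn7 and Cldn8 are mostly counted among sealing or charge-selective claudins. Desmosomes anchor keratin filaments and give the sheet its mechanical strength, and connexins form channels between the cytoplasm of neighbouring cells.

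Promoter sequence is shown for 4 of these genes: Cldn2, lower in both mutants; Cldn4, lower in one mutant and higher in the other; Cldn3, also on chromosome 5, whose level moved little; and Marveld1, which fell furthest among the members that passed the filter on low counts. Each line holds the 150 bases just before the RefSeq transcription start (GRCm38.p6), 5′ to 3′ on the strand of the gene. Capitals mark matches on either strand to the motifs searched: the TATA box, spelled TATAAA; the GC box, spelled GGGCGG; the E-box that Snail factors bind, spelled CACCTG; a palindrome of grainyhead-like factors, spelled AACCGGTT; and a CDX motif, spelled TTTATG.
Cldn2 (chrX:139800658-139800807, plus strand): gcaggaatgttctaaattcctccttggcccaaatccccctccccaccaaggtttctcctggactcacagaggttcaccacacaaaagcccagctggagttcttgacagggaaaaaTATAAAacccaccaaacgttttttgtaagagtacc
Cldn4 (chr5:134946935-134947084, minus strand): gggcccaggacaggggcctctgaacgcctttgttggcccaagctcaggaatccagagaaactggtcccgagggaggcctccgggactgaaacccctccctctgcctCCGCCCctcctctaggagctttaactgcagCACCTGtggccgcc
Cldn3 (chr5:134986064-134986213, plus strand): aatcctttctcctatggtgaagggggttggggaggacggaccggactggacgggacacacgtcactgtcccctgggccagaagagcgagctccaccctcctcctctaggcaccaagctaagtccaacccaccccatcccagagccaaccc
Marveld1 (chr19:42147239-42147388, plus strand): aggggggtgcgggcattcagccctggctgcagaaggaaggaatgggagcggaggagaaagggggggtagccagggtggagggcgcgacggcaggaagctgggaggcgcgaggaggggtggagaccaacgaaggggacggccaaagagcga
The Cldn2 stretch held a TATA box whose first base lay 35 bases before the start. The Cldn4 stretch held a GC box at 44 bases and a Snail E-box at 14 bases before the start. The Cldn3 and Marveld1 stretches held none of these letters. RefSeq windows from 250 bases before to 50 after the start were at hand for 27 of the 47 genes, 39 windows in all. Of these, 61.5% held a GC box against 35.7% of all 32851 windows, 41.0% held a Snail E-box against 20.2%, and 15.4% held a TATA box against 13.6%. CDX motifs were in 7.69% of the junction windows and 11.9% of all windows, and the grainyhead-like palindrome in 0 of 39 and in 0.146% of all windows. A match is a description of the sequence and says nothing about binding.

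Of the 47 genes, 36 passed the filter on low counts in at least 1 comparison and 33 in all 3. The 11 tested in none, with counts of 0 to 12 per library, included Cldn1, Cldn9, Cldn11, Cldn18, Dsc3, Dsg3, Gja1, Gja4, Gja5 and Gjb5. Dsg1c and Dsg4 were tested in the direct comparison of the mutants alone.

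In Hdac1-deficient enteroids, 15 of 33 tested junction genes rose and 10 fell against control at an adjusted p of at most 0.05 by edgeR's quasi-likelihood test, or 75.8% of those tested. Over all 14246 genes tested the share was 64.6%, with 32.7% higher and 31.9% lower. Changes over 2-fold (log2 above 1 or below -1) were called for 2 junction genes, Cldn8 and Marveld1, against 10.6% of all genes. The libraries of the groups did not overlap for 26 of the 33, against 58.5% of all genes.

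In Hdac2-deficient enteroids, 22 of 34 tested junction genes rose and 4 fell, 76.5% in all, against 62.3% of 14007 genes, with 31.4% higher and 30.9% lower. Changes over 2-fold were called for 3, Cldn8 and Marveld1 among them, against 8.3% of all genes, and 26 of the 34 did not overlap, against 56% of all genes. The median log2 change of the junction genes was 0.03 in Hdac1- and 0.12 in Hdac2-deficient enteroids, against -0.004 over all genes in each comparison. The median size of the change, whatever its sign, was 0.22 in both, against 0.25 and 0.23 over all genes. Both comparisons use the same 4 control libraries. In bulk RNA, fewer cells of a type and less RNA per cell cannot be told apart. Enterocyte markers moved with these groups, with a summed level of 8792 to 9326 CPM in control cultures, 17245 to 19472 CPM in Hdac1-deficient libraries and 13815 to 15412 CPM in Hdac2-deficient libraries, and 10 of 10 rose in each mutant. Stem cell markers summed to 3567 to 3768, 2005 to 2343 and 1679 to 1875 CPM, and 5 of 5 fell in each mutant. The part of either list in the junction results was not tested.

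**Figure D1:**
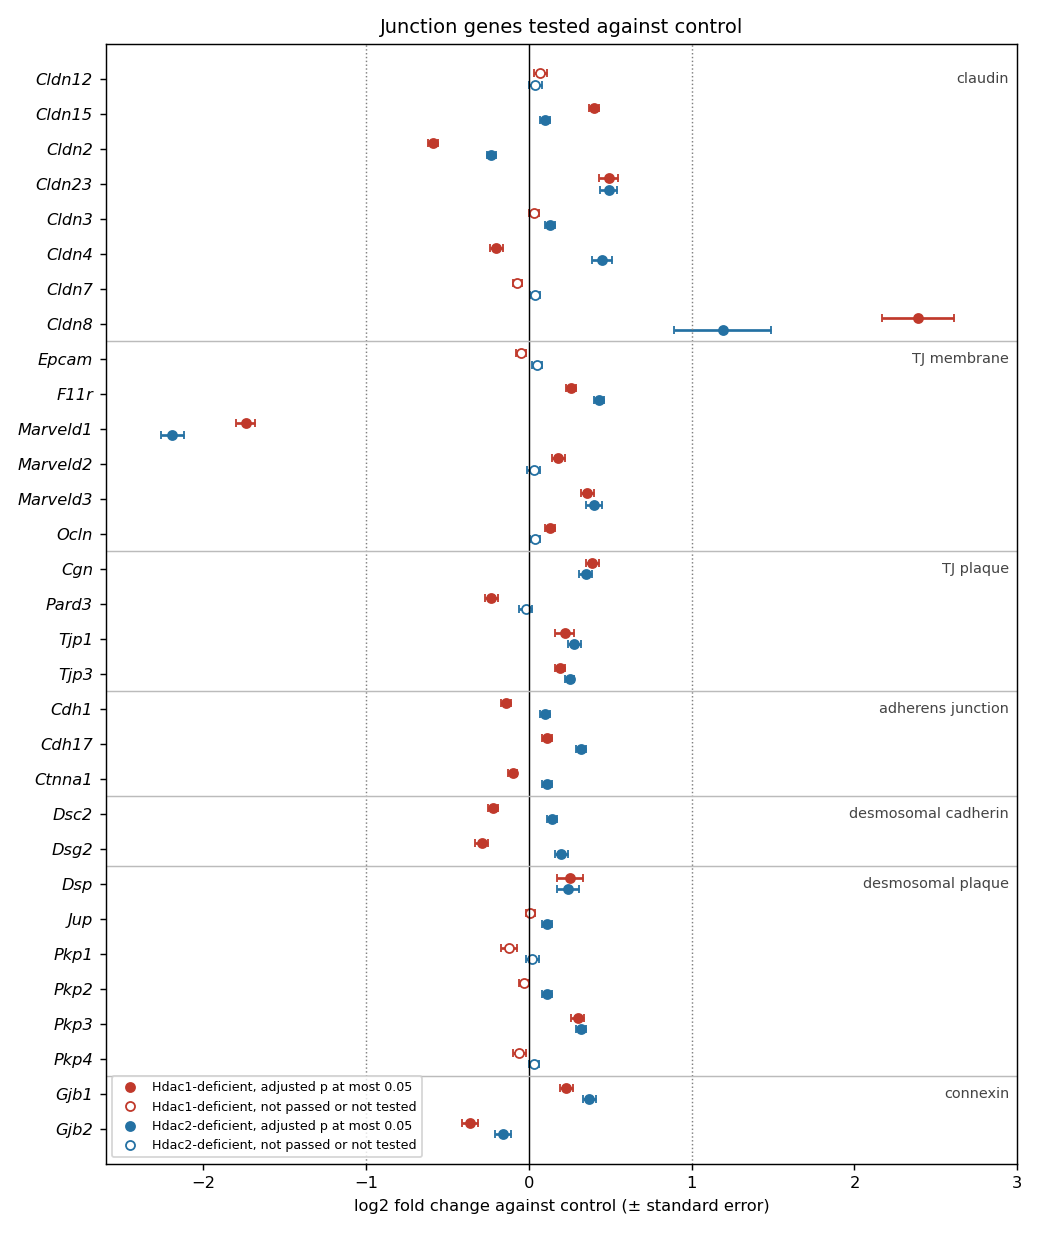
Log2 fold change against control (± standard error, 4 libraries per group) of junction genes tested, by type (TJ, tight junction), for Hdac1-deficient (red) and Hdac2-deficient (blue) enteroids; filled points passed an adjusted p of 0.05, open points did not, and the dotted lines mark a 2-fold change. Most points lie within 2-fold, with Marveld1 at -1.74 and -2.19 and Cldn8 at 2.39 and 1.19.

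Among the claudins, the pore-forming pair changed in opposite directions. The Cldn2 gene product forms a channel for cations and water and is typical of crypts. Cldn2 stood at 428, 429, 422 and 413 CPM in the 4 control libraries, at 277, 287, 284 and 264 CPM in the Hdac1-deficient libraries and at 359, 361, 359.6 and 350.4 CPM in the Hdac2-deficient libraries. No library of one group overlapped with another, and the order was control, then Hdac2-deficient, then Hdac1-deficient. Cldn2 fell 1.51-fold in Hdac1-deficient cultures (log2 -0.59 ± 0.03, adjusted p = 4.5e-12) and 1.17-fold in Hdac2-deficient enteroids (log2 -0.23 ± 0.03, adjusted p = 2.0e-07), and was lower in Hdac1- than in Hdac2-deficient enteroids (log2 -0.36 ± 0.03, adjusted p = 1.3e-10). Here and throughout, log2 changes are given ± standard error. Cldn2 was singled out for a full description after its values were seen.

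Cldn15, the other cation-pore claudin of the small intestine, moved the other way. Cldn15 stood at 449, 431, 439.9 and 444 CPM in the 4 control libraries, at 584, 561, 573 and 588 CPM in the Hdac1-deficient libraries and at 477, 466, 454 and 477 CPM in the Hdac2-deficient libraries. The 3 groups did not overlap, and the Hdac1-deficient libraries were the highest. Cldn15 rose 1.32-fold in Hdac1-deficient cultures (log2 0.40 ± 0.03, adjusted p = 7.5e-10) and 1.07-fold in Hdac2-deficient enteroids (log2 0.10 ± 0.03, adjusted p = 4.9e-03), and was higher in Hdac1- than in Hdac2-deficient enteroids (log2 0.30 ± 0.03, adjusted p = 3.3e-09). Per kilobase of exon, the ratio of Cldn15 to Cldn2 was 1.57 to 1.68 in control, 3.06 to 3.49 in Hdac1-deficient libraries and 1.97 to 2.13 in Hdac2-deficient libraries. Cldn2 lies on the X chromosome, where the protein-coding genes had a median log2 change of -0.03 in Hdac1-deficient libraries and -0.04 in Hdac2-deficient enteroids.

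Cldn4, a sealing claudin, fell in Hdac1-deficient libraries and rose in Hdac2-deficient enteroids. Cldn4 stood at 108, 112, 106 and 99.8 CPM in the 4 control libraries, at 88.8, 92.2, 96.1 and 90.2 CPM in the Hdac1-deficient libraries and at 129, 150.4, 157 and 139.7 CPM in the Hdac2-deficient libraries. The control libraries lay between those of the mutants, without overlap. The change was -0.20 ± 0.04 on the log2 scale in Hdac1-deficient cultures (adjusted p = 1.7e-04) and 0.45 ± 0.06 in Hdac2-deficient enteroids (adjusted p = 1.2e-05). The Hdac1-deficient level was 1.57-fold lower than the Hdac2-deficient level (log2 -0.65 ± 0.05, adjusted p = 1.6e-09). Cldn4 and Cldn3, whose promoters are printed above, lie close to each other on chromosome 5. Per kilobase, Cldn4 stood at 0.168 to 0.186 of Cldn3 in control, 0.148 to 0.151 in Hdac1-deficient libraries and 0.199 to 0.244 in Hdac2-deficient libraries.

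Cldn8, a claudin best known from the distal nephron and the colon, was scarce in every library and rose in both mutants. It was counted 15, 9, 12 and 12 times in the control libraries, 71, 52, 73 and 62 times in the Hdac1-deficient and 19, 25, 14 and 36 times in the Hdac2-deficient libraries. These counts equal 0.318 to 0.503 CPM, 1.68 to 2.66 CPM and 0.678 to 1.56 CPM, and the 3 ranges did not overlap. The rise was 5.24-fold in Hdac1-deficient cultures (log2 2.39 ± 0.22, adjusted p = 9.5e-09) and 2.28-fold in Hdac2-deficient enteroids (log2 1.19 ± 0.30, adjusted p = 1.8e-03), and the mutants differed from each other (log2 1.19 ± 0.22, adjusted p = 6.2e-05). Without Hdac2 replicate 4, which held the highest Hdac2-deficient count, the change in Hdac2-deficient enteroids was 0.88 on the log2 scale (adjusted p = 0.015), below 2-fold.

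**Figure D2:**
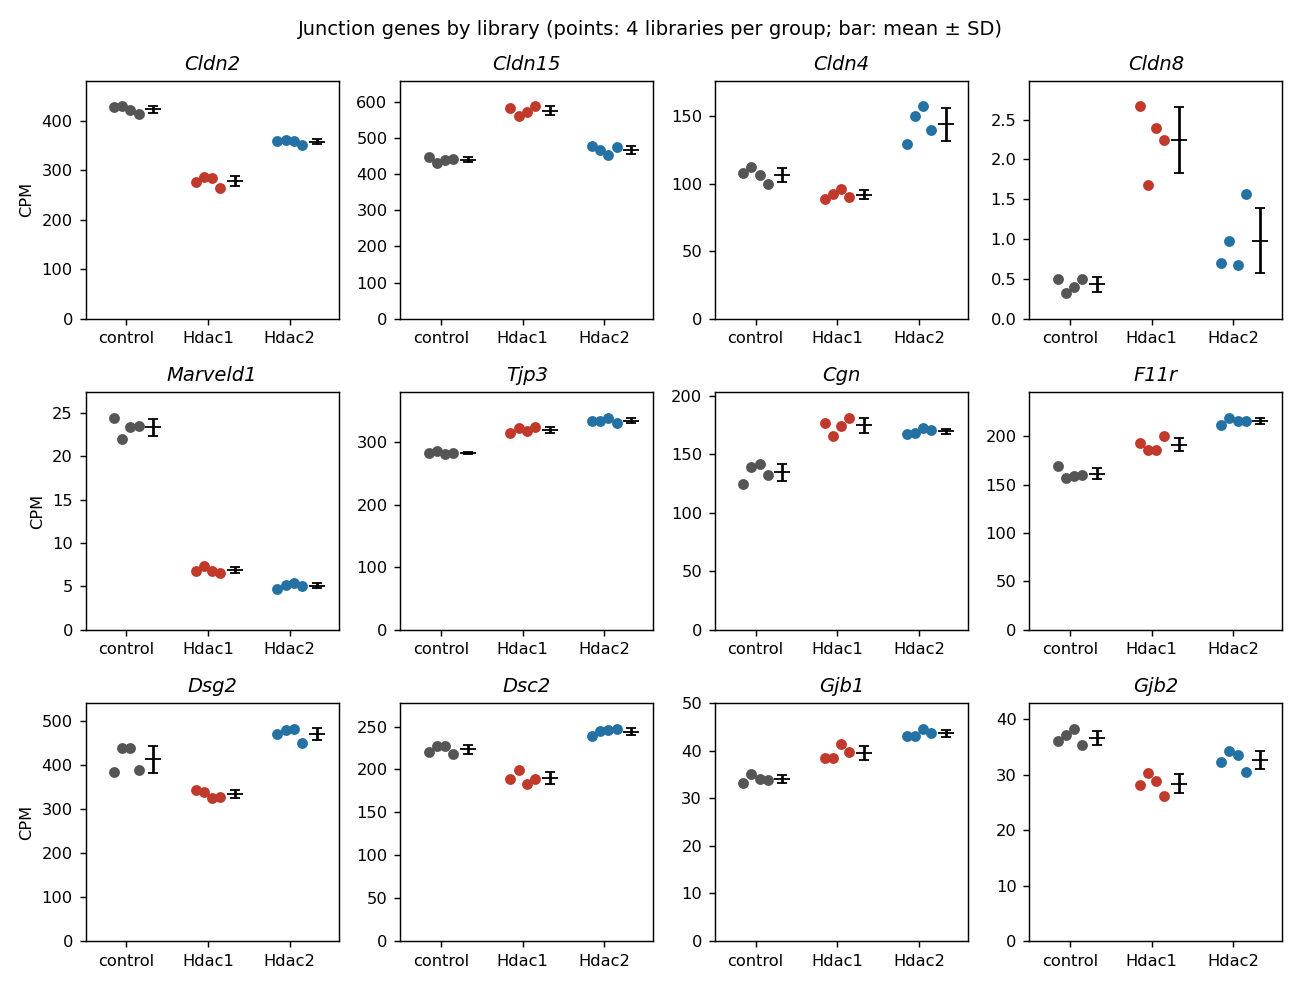
CPM of 12 junction genes in each of the 12 libraries (points, 4 per group in the order of the replicate number) with the mean ± SD of the group (black), on axes that start at 0. Marveld1 is lower and Tjp3 higher in both mutants, while Cldn4, Dsg2 and Dsc2 lie below control in Hdac1-deficient libraries and above it in Hdac2-deficient libraries.

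The most abundant claudin transcripts moved less. Cldn7, a claudin of the basolateral membrane as well as of tight junctions, averaged 366 ± 9.14 CPM per kilobase in control, 344 ± 12.1 in Hdac1-deficient libraries and 373 ± 5.99 in Hdac2-deficient libraries (SD, n = 4). Its log2 change did not pass the test in Hdac1-deficient (log2 -0.07 ± 0.03, adjusted p = 0.077) or Hdac2-deficient enteroids (log2 0.04 ± 0.03, adjusted p = 0.25), though it was lower in the direct comparison (log2 -0.11 ± 0.03, adjusted p = 4.4e-03). Cldn3 averaged 335 ± 12.2, 339 ± 8.65 and 363 ± 7.50 CPM per kilobase. It rose in Hdac2-deficient enteroids (log2 0.13 ± 0.03, adjusted p = 1.2e-03), and its change in Hdac1-deficient enteroids was log2 0.03 ± 0.03, adjusted p = 0.42. The less abundant Cldn23 rose 1.40-fold in each mutant (adjusted p = 2.9e-07 and 1.2e-07), and the interval of the difference between mutants was -0.11 to 0.10 on the log2 scale. Cldn12, at 70.3 to 72.5 CPM in control cultures, passed in no comparison, with log2 changes of 0.07 and 0.04 against control.

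As a share of all claudin transcripts per kilobase, Cldn7 made up 32.5 ± 0.17% in control, 30.6 ± 0.60% in Hdac1-deficient libraries and 31.6 ± 0.13% in Hdac2-deficient libraries (SD, n = 4). Cldn15 made up 18.5 ± 0.35%, 24.1 ± 0.85% and 18.7 ± 0.49% in the same order. For Cldn2 the shares were 11.3 ± 0.21%, 7.42 ± 0.21% and 9.13 ± 0.16%, and for Cldn4 5.22 ± 0.24%, 4.49 ± 0.077% and 6.74 ± 0.56%. The Cldn15 share ran from 23.4 to 24.9% in Hdac1-deficient libraries, above the 18.2 to 18.9% of control, while the 18.3 to 19.3% of Hdac2-deficient libraries overlapped with control. The summed level of the 12 claudins was 1104 to 1163 CPM per kilobase in control and 1109 to 1152 in Hdac1-deficient libraries, which overlapped, and 1167 to 1199.5 in Hdac2-deficient libraries, just above both.

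**Figure D3:**
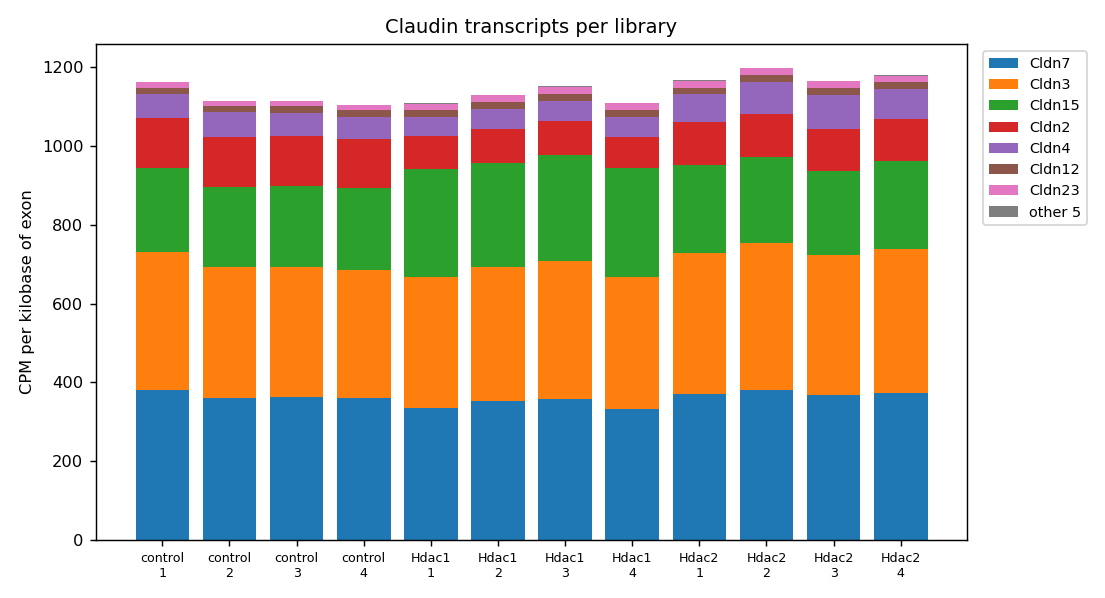
CPM per kilobase of exon of the claudins in each of the 12 libraries, stacked by gene; other 5 are Cldn1, Cldn8, Cldn9, Cldn11 and Cldn18. The height of the bars differs little, while the Cldn15 segment is thicker and the Cldn2 segment thinner in the Hdac1-deficient libraries.

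Marveld1 was grouped by its symbol with the other membrane proteins of tight junctions. It showed the largest fall of the junction genes tested against control in both mutants. Cldn9 and Cldn11, which did not pass the filter on low counts, gave log2 values of -2.08 and -2.20 with DESeq2 in Hdac1-deficient enteroids, from at most 11 counts per library. MARVELD1 carries the same MARVEL domain as occludin. Marveld1 stood at 24.4, 21.995, 23.4 and 23.5 CPM in the 4 control libraries, at 6.83, 7.35, 6.82 and 6.53 CPM in the Hdac1-deficient libraries and at 4.72, 5.16, 5.42 and 5.03 CPM in the Hdac2-deficient libraries. Every mutant library lay below every control library, and every Hdac2-deficient library below every Hdac1-deficient library. Marveld1 was 3.35-fold lower in Hdac1-deficient cultures (log2 -1.74 ± 0.06, adjusted p = 7.6e-15) and 4.57-fold lower in Hdac2-deficient enteroids (log2 -2.19 ± 0.07, adjusted p = 1.3e-16). It was higher in Hdac1- than in Hdac2-deficient enteroids (log2 0.44 ± 0.08, adjusted p = 7.0e-05).

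Marveld1 lies on chromosome 19 (chr19:42147400-42151703, GRCm38), and genes of this chromosome were lower in both mutants. Its 471 protein-coding genes tested in Hdac1-deficient enteroids had a median log2 change of -0.53, and 75.8% of them fell. In Hdac2-deficient enteroids the median over 461 genes was -0.52, and 77.9% fell. Every other autosome had a median from -0.05 to 0.07 in the first and from -0.01 to 0.12 in the second comparison, and chromosome 19 had a median of 0.02 in the direct comparison of the mutants. Within 2 Mb of Marveld1, 47 genes had a median of -0.48 and a lowest value of -1.49 in Hdac1-deficient enteroids, and 44 genes a median of -0.50 and a lowest value of -1.30 in Hdac2-deficient enteroids. None of these neighbours fell as far as Marveld1.

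**Figure D4:**
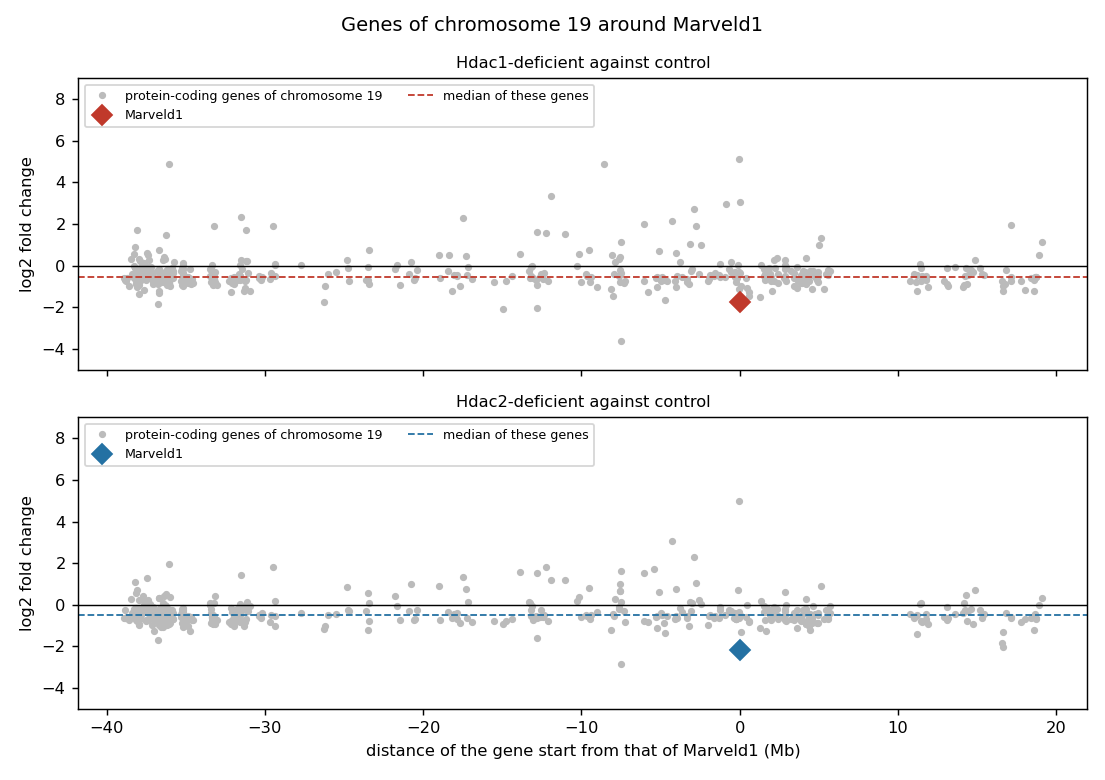
Log2 fold change against control of the protein-coding genes of chromosome 19 by the distance of their start from that of Marveld1 in Mb, for Hdac1-deficient (top, 471 genes) and Hdac2-deficient enteroids (bottom, 461 genes). The dashed line is the median of these genes, -0.53 and -0.52, and Marveld1 lies well below it.

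Epcam, an adhesion molecule that binds Cldn7, was the most abundant junction transcript per kilobase, at 566 ± 12.4 CPM per kilobase in control, 543 ± 11.6 in Hdac1-deficient libraries and 581 ± 8.80 in Hdac2-deficient libraries. Its change passed in neither mutant (log2 -0.05 ± 0.03, adjusted p = 0.22, and log2 0.05 ± 0.03, adjusted p = 0.14), and the level was lower in Hdac1- than in Hdac2-deficient enteroids (log2 -0.10 ± 0.03, adjusted p = 8.8e-03). F11r, which encodes the immunoglobulin-like junctional adhesion molecule JAM-A, rose in both. F11r stood at 169.7, 157, 159 and 159.8 CPM in the 4 control libraries, at 193, 186, 186 and 200.1 CPM in the Hdac1-deficient libraries and at 212, 219, 216 and 216 CPM in the Hdac2-deficient libraries. The 3 groups did not overlap. The rise was 1.20-fold in Hdac1-deficient cultures (log2 0.26 ± 0.03, adjusted p = 1.7e-06) and 1.35-fold in Hdac2-deficient enteroids (log2 0.43 ± 0.03, adjusted p = 6.7e-11), with a difference between them of log2 -0.17 ± 0.03, adjusted p = 7.1e-05.

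Occludin (Ocln) rose by log2 0.13 in Hdac1-deficient enteroids (adjusted p = 1.3e-03), and its change of 0.04 in Hdac2-deficient enteroids did not pass (adjusted p = 0.28). The direct difference was log2 0.09 ± 0.03, adjusted p = 0.013. Marveld2, or tricellulin, a protein of contacts between more than a pair of cells, gave log2 0.18 ± 0.04, adjusted p = 1.4e-03 in Hdac1-deficient libraries and log2 0.03 ± 0.04, adjusted p = 0.56 in Hdac2-deficient enteroids. Marveld3 rose in both, by 0.36 and 0.40 (adjusted p = 4.2e-07 and 3.3e-07). Of the 3 genes with a Marveld symbol, Marveld1 alone fell in either mutant.

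In the tight junction plaque, which ties the membrane proteins to actin, the zonula occludens genes Tjp1 (ZO-1) and Tjp3 (ZO-3), on chromosomes 7 and 10, rose in both mutants. Tjp3 rose from 282 to 286 CPM in control to 315 to 324 CPM in Hdac1-deficient cultures (log2 0.19 ± 0.03, adjusted p = 1.1e-05) and 331 to 339.6 CPM in Hdac2-deficient libraries (log2 0.25 ± 0.03, adjusted p = 4.5e-08). Tjp1 rose by 0.22 and 0.28 (adjusted p = 3.5e-03 and 1.7e-05), and its Hdac1-deficient libraries overlapped with control. Cingulin (Cgn), which links zonula occludens proteins to myosin, rose in both. Cgn stood at 125, 139, 141 and 132 CPM in the 4 control libraries, at 177, 166, 174 and 181 CPM in the Hdac1-deficient libraries and at 168, 168, 172 and 170.4 CPM in the Hdac2-deficient libraries. Both mutants lay above control without overlap, and the rise was log2 0.39 ± 0.04, adjusted p = 3.5e-08 in Hdac1-deficient libraries and log2 0.35 ± 0.04, adjusted p = 2.7e-08 in Hdac2-deficient enteroids, with an interval of their difference of -0.02 to 0.11. Pard3, a polarity scaffold, fell in Hdac1-deficient (log2 -0.23 ± 0.04, adjusted p = 7.0e-05), and its value in Hdac2-deficient enteroids was log2 -0.02 ± 0.04, adjusted p = 0.6.

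Long transcripts were low in control replicate 1, where 1791 genes with at least 8000 bases of exon deviated by a median of -0.07 on the log2 scale from the group mean and 1042 genes under 2000 bases by 0.08. In the other 11 libraries these medians lay between -0.042 and 0.051. Without this library, Dsp rose by 0.18 and 0.16 rather than 0.25 and 0.24, Tjp1 by 0.17 and 0.23, and Dsg2 gave -0.33 and 0.16. The directions were as with all libraries.

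Adherens junctions hold cells together through cadherins bound to catenins and actin. Of the 3 genes grouped here by symbol, E-cadherin (Cdh1) and α-catenin (Ctnna1) fell in Hdac1-deficient libraries and rose in Hdac2-deficient enteroids. Cdh1 stood at 817, 871, 872 and 819 CPM in the 4 control libraries, at 788, 765, 739 and 744 CPM in the Hdac1-deficient libraries and at 882, 905, 895 and 914 CPM in the Hdac2-deficient libraries. The control libraries lay between the mutants. The changes were log2 -0.14 ± 0.03, adjusted p = 1.5e-03 in Hdac1-deficient, log2 0.10 ± 0.03, adjusted p = 7.1e-03 in Hdac2-deficient and log2 -0.24 ± 0.03, adjusted p = 3.4e-07 in the direct comparison. Without control replicate 4, the rise in Hdac2-deficient enteroids was 0.08 (adjusted p = 0.055). Ctnna1 changed by -0.10 and 0.11 (adjusted p = 6.5e-03 and 3.3e-03), with a direct difference of log2 -0.21 ± 0.03, adjusted p = 9.0e-07. The liver-intestine cadherin Cdh17, the most abundant of the 3 per kilobase, rose in both. Cdh17 stood at 879.5, 890.3, 884 and 866 CPM in the 4 control libraries, at 948, 928, 896 and 991 CPM in the Hdac1-deficient libraries and at 1097, 1094, 1096 and 1069 CPM in the Hdac2-deficient libraries. The groups did not overlap, and the rise was log2 0.11 ± 0.03, adjusted p = 7.8e-03 in Hdac1-deficient libraries and log2 0.32 ± 0.03, adjusted p = 1.9e-09 in Hdac2-deficient enteroids.

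The desmosomal cadherins differed in direction between the mutants. Dsg2 and Dsc2, the desmoglein and desmocollin of simple epithelia, were the members of this type measured well above the floor of 3 counts (0.0971 to 0.145 CPM). Dsg2 stood at 384, 438, 439 and 389 CPM in the 4 control libraries, at 343, 339, 324 and 327 CPM in the Hdac1-deficient libraries and at 469, 479, 482 and 449.7 CPM in the Hdac2-deficient libraries. Dsc2 stood at 220.4, 228, 227 and 218 CPM in the 4 control libraries, at 189, 199, 183 and 189 CPM in the Hdac1-deficient libraries and at 239, 245, 246 and 247 CPM in the Hdac2-deficient libraries. For both genes, every Hdac1-deficient library lay below and every Hdac2-deficient library above all control libraries. Dsg2 fell 1.23-fold in Hdac1-deficient cultures (log2 -0.29 ± 0.04, adjusted p = 6.3e-06) and rose 1.15-fold in Hdac2-deficient enteroids (log2 0.20 ± 0.04, adjusted p = 7.4e-04). Dsc2 fell 1.16-fold (log2 -0.22 ± 0.03, adjusted p = 7.6e-06) and rose 1.10-fold (log2 0.14 ± 0.03, adjusted p = 1.8e-04). In the direct comparison, Dsg2 was 1.41-fold (log2 -0.50 ± 0.04, adjusted p = 1.5e-10) and Dsc2 1.28-fold lower in Hdac1-deficient enteroids (log2 -0.36 ± 0.03, adjusted p = 1.5e-10). The summed level of the type was 88.3 to 96.4 CPM per kilobase in control, 74.0 to 78.8 in Hdac1-deficient libraries and 101 to 105 in Hdac2-deficient libraries. Dsg1c, Dsg3, Dsg4 and Dsc3, cadherins of stratified epithelia and hair, were counted 0 to 14 times per library. Dsg1c and Dsg4 did not pass in the direct comparison (log2 -0.15 ± 0.32, adjusted p = 0.74, and log2 -0.74 ± 0.46, adjusted p = 0.2).

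The desmosomal plaque joins these cadherins to keratin. Plakoglobin (Jup), its most abundant member per kilobase, stood at 310.1 to 331 CPM in control cultures, 313 to 333 CPM in Hdac1-deficient libraries and 337 to 352 CPM in Hdac2-deficient libraries. It rose in Hdac2-deficient enteroids (log2 0.11 ± 0.03, adjusted p = 2.6e-03), and its value in Hdac1-deficient enteroids was log2 0.01 ± 0.03, adjusted p = 0.82. Desmoplakin (Dsp) binds the filaments. Dsp stood at 330.0, 424, 405 and 390.4 CPM in the 4 control libraries, at 489, 449.6, 416 and 474 CPM in the Hdac1-deficient libraries and at 451, 441, 453 and 465 CPM in the Hdac2-deficient libraries. The Hdac1-deficient libraries overlapped with control and the Hdac2-deficient ones did not. Dsp rose in both (log2 0.25 ± 0.08, adjusted p = 0.019, and log2 0.24 ± 0.07, adjusted p = 0.017), but without Hdac1 replicate 4 the first change did not pass (adjusted p = 0.068), nor did it without the filter on low counts (adjusted p = 0.056). Per kilobase, the ratio of Dsg2 to Dsp was 1.16 to 1.36 in control, 0.805 to 0.911 in Hdac1-deficient libraries and 1.13 to 1.27 in Hdac2-deficient libraries.

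Among the plakophilins, Pkp3 rose in both mutants, from 75.9 to 78.0 CPM in control to 90.4 to 101 CPM in Hdac1-deficient cultures (log2 0.30 ± 0.04, adjusted p = 1.2e-06) and 94.1 to 98.1 CPM in Hdac2-deficient libraries (log2 0.32 ± 0.03, adjusted p = 1.7e-08). Pkp2 rose in Hdac2-deficient enteroids alone at this threshold (log2 0.11 ± 0.03, adjusted p = 3.4e-03), against log2 -0.03 ± 0.03, adjusted p = 0.49 in Hdac1-deficient, and the difference between mutants was log2 -0.14 ± 0.03, adjusted p = 5.8e-04. Pkp1 and Pkp4 passed against control in neither mutant, with log2 values from -0.12 to 0.03, and both were lower in the direct comparison (log2 -0.14 and -0.10, adjusted p = 0.026 and 0.021). With library size alone as the scaling, these 2 differences did not pass. Single libraries also ended the calls. Pkp1 was -0.07 without Hdac1 replicate 4 (adjusted p = 0.15) and did not pass without Hdac2 replicate 2 or 3 (adjusted p = 0.091 and 0.06). Pkp4 did not pass without Hdac1 replicate 3 or 4 (adjusted p = 0.1 and 0.057) or Hdac2 replicate 4 (adjusted p = 0.051).

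Of the connexins, Gjb1 (connexin 32) rose in both mutants. Gjb1 stood at 33.2, 35.1, 34.2 and 34.0 CPM in the 4 control libraries, at 38.6, 38.5, 41.5 and 39.7 CPM in the Hdac1-deficient libraries and at 43.2, 43.2, 44.7 and 43.7 CPM in the Hdac2-deficient libraries. The groups did not overlap, and the rise was log2 0.23 ± 0.04, adjusted p = 1.2e-04 in Hdac1-deficient libraries and log2 0.37 ± 0.04, adjusted p = 7.7e-08 in Hdac2-deficient enteroids. Gjb2 (connexin 26), which can share channels with connexin 32, fell. Gjb2 stood at 36.0, 37.1, 38.3 and 35.4 CPM in the 4 control libraries, at 28.1, 30.3, 28.8 and 26.2 CPM in the Hdac1-deficient libraries and at 32.4, 34.3, 33.5 and 30.5 CPM in the Hdac2-deficient libraries. The Hdac1-deficient libraries were the lowest, and the fall was log2 -0.36 ± 0.05, adjusted p = 3.0e-06 in Hdac1-deficient libraries and log2 -0.16 ± 0.05, adjusted p = 5.4e-03 in Hdac2-deficient enteroids. The ratio of Gjb1 to Gjb2 per kilobase was 1.26 to 1.35 in control, 1.79 to 2.14 in Hdac1-deficient libraries and 1.78 to 2.02 in Hdac2-deficient libraries, so the mutants overlapped and both lay above control.

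Gja1, Gja4 and Gja5 were counted at most 8 times in any library. Gjb1 is X-linked, as is Xist, which stood at 1.57 ± 0.174 CPM in control cultures, 917.2 ± 130.1 CPM in Hdac1-deficient libraries and 584.2 ± 83.0 CPM in Hdac2-deficient libraries. Control libraries held at most 1.72 CPM of Xist, Hdac1-deficient libraries at least 775.5 CPM and Hdac2-deficient libraries at least 494.5 CPM. This difference cannot be told apart from the genotype in either comparison against control. The methods do not give the sex of the mice. The part of the Xist difference in the level of Gjb1, Cldn2 or any other junction gene was not tested.

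The direct comparison asked where the mutants differed from each other. Of 36 junction genes tested, 18 were lower and 5 higher in Hdac1- than in Hdac2-deficient enteroids, or 63.9%, against 45.9% of all 14510 genes, with 23.7% lower and 22.3% higher. The 5 higher were Cldn8, Marveld1, Cldn15, Marveld2 and Ocln, all grouped here with tight junctions. Only Cldn8 differed over 2-fold, against 5.62% of all genes, and 22 of the 36 did not overlap, against 41.7% of all genes. The median log2 difference was -0.10, against 0.005 over all genes. All 3 genes grouped with adherens junctions were lower, as were 4 of 6 desmosomal plaque genes. Of the 4 desmosomal cadherins tested, Dsg2 and Dsc2 were lower too. In the tight junction plaque 1 of 5, Pard3, was lower (log2 -0.21 ± 0.04, adjusted p = 8.8e-05). Cldn4, Cdh1, Ctnna1, Dsc2 and Dsg2 were below control in Hdac1-deficient libraries and above it in Hdac2-deficient enteroids, with a call in each comparison. They were 5 of the 33 junction genes tested in all 3 comparisons, or 15.2%, against 2.4% of 13851 genes for the same pattern of calls. These shares were not matched for abundance, and a small change is called more readily at high counts. The median size of the direct difference, whatever its sign, was 0.14 for junction genes and 0.16 over all genes. Of the general epithelial markers, 5 of 5 were lower in Hdac1- than in Hdac2-deficient enteroids. Against control, 2 rose and 2 fell in Hdac1-deficient enteroids, and 4 rose and 0 fell in Hdac2-deficient enteroids. Epcam and Cdh1 belong to both the marker and the junction list. Goblet cell markers summed to 1601 to 1859 CPM in control cultures, 1728 to 1853 CPM in Hdac1-deficient libraries and 2675 to 2905 CPM in Hdac2-deficient libraries. Of 7 goblet markers, 3 rose and 1 fell in Hdac1-deficient enteroids, and 6 rose and 0 fell in Hdac2-deficient enteroids. Directly compared, 5 were lower and 0 higher in Hdac1-deficient enteroids. Paneth cell markers summed to 2132 to 2484, 3097 to 3361 and 3378 to 3531 CPM. Of 6 tested, 2 rose and 1 fell in Hdac1-deficient enteroids, and 5 rose and 0 fell in Hdac2-deficient enteroids. Directly compared, 3 were lower and 0 higher in Hdac1-deficient enteroids. Other lists ran the other way in the direct comparison. Of 10 enterocyte markers, 6 were higher and 1 lower in Hdac1-deficient enteroids. Of 5 stem cell markers, 3 were higher and 1 lower. Of 4 tuft cell markers tested, 4 were higher and 0 lower, and of 7 enteroendocrine markers 2 were higher and 1 lower. The part of these marker lists in the differences between the mutants was not tested.

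**Figure D5:**
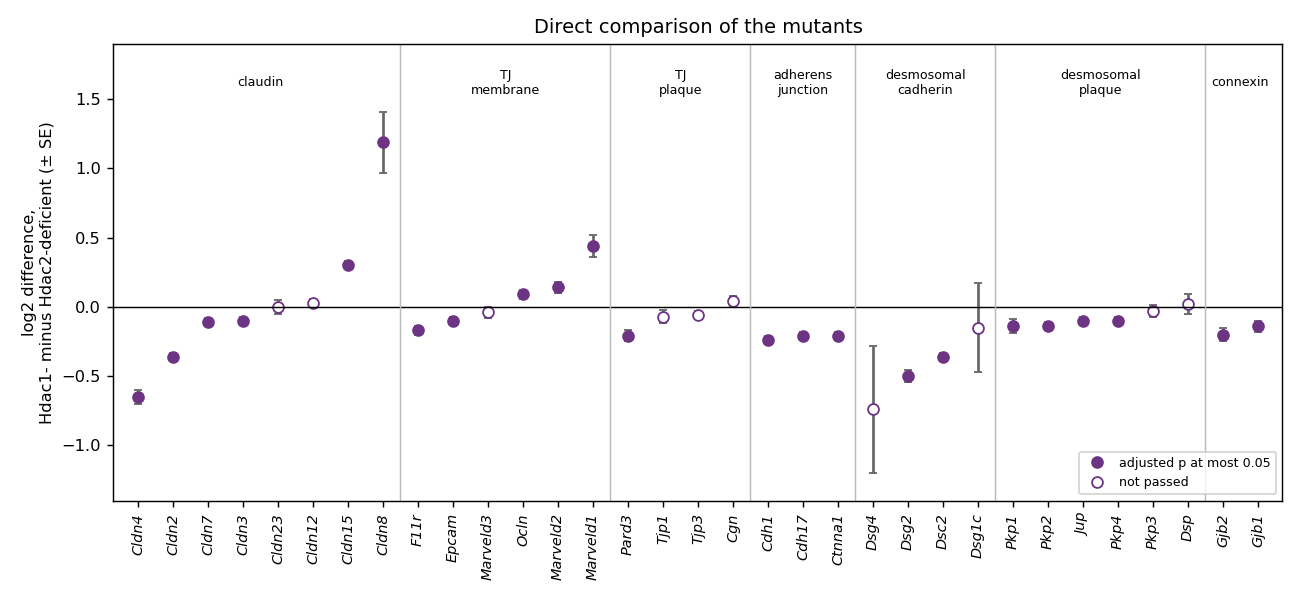
Log2 difference between Hdac1- and Hdac2-deficient enteroids (± standard error, fit of all 12 libraries) of 33 of the 36 junction genes tested, ordered by value within each type (TJ, tight junction); filled points passed an adjusted p of 0.05. Adherens junction genes, Dsg2 and Dsc2 lie below 0, and Cldn8 and Marveld1 have the highest values, 1.19 and 0.44.

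A list of 80 further symbols for junction and keratin genes was compared in the same fits, of which 62 were in the tables. In Hdac1-deficient enteroids 29 of 53 tested rose and 12 fell, with a median log2 change of 0.17. In Hdac2-deficient enteroids 32 of 52 rose and 7 fell, with a median of 0.23. In the direct comparison 9 of 54 were higher and 31 lower in Hdac1-deficient enteroids, with a median of -0.12. Over all genes, 32.7% rose and 31.9% fell in Hdac1-deficient enteroids, and 31.4% rose and 30.9% fell in Hdac2-deficient enteroids. Directly compared, 22.3% of all genes were higher and 23.7% lower. Changes over 2-fold were called for 7 of 53, 6 of 52 and 3 of 54 in the same order. The shares over all genes were 10.6%, 8.3% and 5.62%.

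Several scaffolds and receptors of this list changed over 2-fold. Ildr1, the angulin that recruits tricellulin, rose from 7.78 CPM in control to 16.6 CPM in Hdac1-deficient cultures (log2 1.10 ± 0.07, adjusted p = 6.7e-11) and 19.6 CPM in Hdac2-deficient enteroids (log2 1.34 ± 0.09, adjusted p = 8.0e-11). Its relative Ildr2 stood at 0.0187, 0.811 and 0.168 CPM, with an adjusted p of 1.5e-07 in Hdac1-deficient enteroids; the control level is below 3 counts, so no fold is given. The scaffold Magi2, also scarce, rose in Hdac1-deficient enteroids from 0.196 to 0.547 CPM (log2 1.47 ± 0.35, adjusted p = 1.2e-03). It stood at 0.349 CPM in Hdac2-deficient enteroids, where it was not tested against control. The direct difference did not pass (log2 0.63 ± 0.32, adjusted p = 0.11). Esam, an adhesion molecule related to F11r, fell from 7.90 CPM to 2.73 CPM in Hdac1-deficient cultures (log2 -1.52 ± 0.10, adjusted p = 3.8e-11) and 3.63 CPM in Hdac2-deficient enteroids (log2 -1.10 ± 0.10, adjusted p = 2.5e-09). Cgnl1, or paracingulin, fell from 39.2 to 18.8 CPM in Hdac1-deficient enteroids (log2 -1.04 ± 0.07, adjusted p = 9.7e-11) and stood at 38.5 CPM in Hdac2-deficient enteroids, a direct difference of log2 -1.03 ± 0.07, adjusted p = 1.6e-10, whereas its relative Cgn rose in both.

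In Hdac2-deficient enteroids, the largest rises on the list were those of 2 cadherins and of envoplakin. The GPI-anchored Cdh13 stood at 0.0621 CPM in control and 0.830 CPM in Hdac2-deficient enteroids (adjusted p = 8.8e-07), with the control again below 3 counts. In Hdac1-deficient enteroids it stood at 0.419 CPM and was not tested against control. The direct difference was log2 -0.99 ± 0.31, adjusted p = 0.011. The protocadherin Cdhr1 rose from 0.699 to 3.38 CPM (log2 2.29 ± 0.21, adjusted p = 6.4e-09). It also rose against control in Hdac1-deficient enteroids, to 1.27 CPM (log2 0.91 ± 0.28, adjusted p = 8.6e-03). The direct difference, Hdac1- minus Hdac2-deficient, was log2 -1.38 ± 0.22, adjusted p = 2.1e-05. Envoplakin (Evpl), a plakin related to desmoplakin, rose from 14.02 CPM to 40.5 CPM in Hdac2-deficient (log2 1.54 ± 0.08, adjusted p = 3.3e-10) and 29.3 CPM in Hdac1-deficient enteroids (log2 1.08 ± 0.08, adjusted p = 1.4e-09). Of 9 keratins and other genes linked to desmosomes on the list, 8 were lower and 1, Krt20, higher in Hdac1- than in Hdac2-deficient enteroids. Over all genes, 23.7% were lower and 22.3% higher. Against control, 6 of the 9 rose and 2 fell in Hdac1-deficient enteroids, and 8 rose and 0 fell in Hdac2-deficient enteroids. For the keratins of simple epithelia the log2 difference between the mutants was -0.46 for Krt8, -0.50 for Krt18 and -0.30 for Krt19 (adjusted p = 7.3e-12, 3.0e-13 and 3.0e-08). In Hdac1-deficient enteroids their log2 changes against control were 0.19, -0.28 and 0.34 in the same order. The keratins were named after their values were seen.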

How the data were processed

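RNA-Seq gene counts of 12 libraries of murine jejunal enteroids were analysed, 4 per genotype as given in the labels. Per the labels, libraries were made from poly(A) RNA with directional second-strand synthesis and sequenced as paired reads of 100 bases. The submitters' processing notes name bcl2fastq 1.8.4, STAR 2.4.0f1 and GRCm38; the counting program, its strand setting and the annotation are not given in the sources used here. The authors deposited 1 table per mutant, with 18676 and 18225 genes, 17972 in both, and identical control counts. The deposited counts are whole reads per gene without normalization, for genes whose counts sum to at least 10 over 8 libraries. The authors also deposited 16 columns of normalized scores, fold changes, average log2 CPM and p-values from DESeq and edgeR, which were not used.

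Counts were tested with edgeR 4.0.16 (R 4.3.3) using its quasi-likelihood F test (robust dispersions, TMM normalization, filterByExpr, Benjamini-Hochberg adjustment over all genes tested). Each mutant was fitted with control (8 libraries), and the mutants were compared in a fit of all 12 libraries. "Rose" and "fell" mean an adjusted p of at most 0.05; the limit of 2-fold follows the study's methods. CPM uses TMM-scaled library sizes of the 12 libraries, per kilobase of GENCODE M21 exon length. Standard errors are those of log2 fold changes, and intervals span 1.96 standard errors to each side. Common biological coefficients of variation were 0.0425, 0.0384 and 0.0394. A count of 3 equals 0.0971 to 0.145 CPM, for counting error only. No libraries of a group agreed within sampling noise (chi-square per degree of freedom 1.52 to 8.18). Promoter windows came from RefSeq (GRCm38.p6).

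The members and lists were chosen with earlier results of these data known. Some members are not reported here by name or plotted; counts and medians over all members include them. Any gene that passed the filter could be named, with full statistics for the 3 most abundant per kilobase of each type, those over 2-fold and those with opposite changes; from the further junction list, the 3 largest rises and falls over 2-fold per mutant. Alternatives were DESeq2 1.42.0, other scalings and filters, an adjusted p of at most 0.01, other samples in the fit, the replicate number as a block, and each library left out. In simulated counts, 200 of 200 genes changed by 1.5 on the log2 scale were recovered in each comparison. Genes left unchanged gave 6, 11 and 6 calls. Smaller changes, such as most of those described here, were not simulated, so their recovery is not known. Python 3.11.15, pandas 2.3.3 and matplotlib 3.10.9 were used.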

Additional observations from a re-analysis of the deposited data

Results flagged for a closer look

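A library stood apart from the other 3 of its group, with a gap past Dixon's 95% limit for groups of 4, for 2 of the 108 groups examined; chance alone gives about 1 in 20. Cdh17 was lowest in Hdac2 replicate 4, at 1069 CPM against 1094 to 1097 CPM in the other 3. Cldn7 was highest in control replicate 1, at 739 CPM against 702 to 704 CPM.

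The mutants differed in direction against control for 5 junction genes, each lower in Hdac1-deficient and higher in Hdac2-deficient enteroids, with a call in both and in the direct comparison by edgeR's quasi-likelihood test. This pattern of calls was met by 15.2% of the 33 junction genes tested in all 3 comparisons and by 2.4% of all 13851 genes so tested. The shares were not matched for abundance. The direct log2 differences were -0.65 for Cldn4 (adjusted p = 1.6e-09), -0.50 for Dsg2 (adjusted p = 1.5e-10), -0.36 for Dsc2 (adjusted p = 1.5e-10), -0.24 for Cdh1 (adjusted p = 3.4e-07) and -0.21 for Ctnna1 (adjusted p = 9.0e-07). All 4 Hdac1-deficient libraries lay below all 4 Hdac2-deficient libraries for each. Cldn8 rose in both mutants and was the member whose direct difference exceeded 2-fold, at 1.19 (adjusted p = 6.2e-05).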

How the results depend on the processing

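The calls of 88 of the 103 gene and comparison pairs kept their direction and their side of the threshold under every alternative refitted. Of the 1541 values recomputed, 1500 did. These counts leave out the stricter limit of 0.01 on the adjusted p. By edgeR's quasi-likelihood test, calls that miss this limit include Dsp in Hdac2-deficient enteroids (adjusted p = 0.017). Ocln in the direct comparison misses it too (adjusted p = 0.013). The count of junction genes changed over 2-fold moved most. In Hdac1-deficient enteroids it was 5 with DESeq2 and 6 without a filter on low counts, against 2, with Cldn9 and Cldn11 among those added by both and Cldn1 added without the filter. In Hdac2-deficient enteroids it was 5 without the filter, against 3, with Cldn1 and Cldn11 added. In the direct comparison it was 2 with DESeq2 and 2 without the filter, against 1, with Dsg3 added. These 4 genes had at most 12 counts in any library. With each library left out in turn, the counts over 2-fold ranged from 2 to 3 in Hdac1-deficient, from 2 to 3 in Hdac2-deficient and from 1 to 2 in the direct comparison, the genes higher from 14 to 16, from 21 to 22 and at 5, and the genes lower from 10 to 12, at 4 and from 16 to 19. The direct count was 2 without Hdac1 replicate 4, without Hdac2 replicate 1 or without Hdac2 replicate 4.

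Signs turned only for values that had no call. Jup in Hdac1-deficient enteroids was -0.001 without the filter, -0.003 with all 12 libraries, -0.008 without control replicate 4 and -0.009 without Hdac1 replicate 1, within a range of -0.009 to 0.021 over libraries left out. With library size alone, Marveld2 was -0.001 and Pkp1 -0.012 in Hdac2-deficient enteroids. In the direct comparison, Cldn23 was 0.025 with library size alone, 0.005 with a mean of at least 10 counts, 0.015 and 0.013 without Hdac1 replicates 1 and 2, and 0.001 and 0.014 without Hdac2 replicates 1 and 3, down to -0.027 without Hdac1 replicate 4. Dsg1c ranged from -0.319 to 0.016 (without Hdac1 replicate 4) and Dsp from -0.016 to 0.058, with -0.016 and -0.001 without Hdac1 replicates 1 and 4. The cause was not tested.

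The replicate numbers do not pair the libraries: same-numbered libraries had correlated deviations of -0.05 to 0.094. With the replicate block, 15 junction genes were higher, 11 lower and 2 over 2-fold in Hdac1-deficient enteroids, 22, 4 and 3 in Hdac2-deficient enteroids, and 5, 18 and 1 in the direct comparison. The block added Pkp1 in Hdac1-deficient enteroids (log2 -0.12, adjusted p = 0.045).

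Calls against control were gained with all 12 libraries in 1 fit for Cldn7, Pkp1 and Pkp4 in Hdac1-deficient enteroids (adjusted p = 0.022, 0.024 and 0.050), for Cldn7 and Pkp1 also without the filter (adjusted p = 0.035 and 0.05) or without Hdac1 replicate 3 (0.045 and 0.047), for Pkp1 without Hdac1 replicate 2 (0.025) and for Pkp4 without Hdac1 replicate 1 (0.035). In the direct comparison Tjp3 gained one with DESeq2 (adjusted p = 0.023) or without Hdac1 replicate 4 (0.044). Counts of at most 12 per library limit what can be said of the 11 untested genes, and small differences such as those of Cldn3, Pkp1 and Pkp4 between the mutants depended on the scaling and on single libraries, for Cldn3 on Hdac1 replicate 1 and Hdac2 replicate 2 (adjusted p = 0.054 and 0.059 with each left out alone). Shared or antisense reads could not be separated here.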
